A study of Mus musculus with 6 samples.

Results

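Proteasome subunit genes were compared in the livers of mice fed 6C+4CP and of mice fed 10C. The genes were a list of 37 subunit and activator symbols, and every probe set annotated to exactly 1 of these symbols was taken. This gave 81 probe sets for 36 genes, out of 45037 probe sets on the array and 18193 genes with a probe set of their own. They comprised 28 probe sets of 14 core genes (Psma and Psmb), 43 of 19 regulatory particle genes (Psmc and Psmd) and 10 of 3 activator genes (Psme). The only probe set for Psme2 is annotated to that gene together with Psme2b, and it was left out.

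All 6 mice were male BALB/cCrSlc, an inbred albino strain, aged 17 weeks, and both diets were low in protein and based on the purified diet AIN-93M. The diet 6C+4CP contained 6% casein with 4% collagen peptide from fish, and the diet 10C, the control, contained 10% casein. Feeding lasted 10 weeks, food was withheld for 3 h before sampling, and 3 of the 12 mice on each diet, chosen for a middling food efficiency, gave 1 array each. The lower casein and the added collagen peptide cannot be told apart, and each array sampled a small piece of 1 lobe.

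The proteasome is the large protease that breaks down proteins tagged with ubiquitin. Its core is a barrel of stacked rings in which Psma genes encode the outer, gating rings and Psmb genes the inner rings, where the proteolytic sites face the chamber. The regulatory particle caps the barrel: its Psmc subunits are ATPases that unfold the substrate and its Psmd subunits bind and remove ubiquitin or hold the particle together. Psme proteins are alternative caps. In liver the complex clears short-lived and misfolded proteins, including those exported from the endoplasmic reticulum.

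Values are the authors' processed array values, read as log2, and differences are means for 6C+4CP minus means for 10C. Array medians lay between 6.306 and 6.308. On this array 37246 probe sets held practically 1 value in all 6 mice, and 7791 (17.3%) ranged over more than 0.01 and are termed varying here. A probe set of the first kind, termed fixed, does not show whether its gene differed between mice. Hepatocyte markers were present at high values in every mouse, with means of 14 varying probe sets from 12.92 to 13.03 in 6C+4CP and from 13.00 to 13.03 in 10C. In bulk tissue, fewer cells of a type and less RNA per cell cannot be told apart.

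Proteasome genes tended to read slightly lower in 6C+4CP livers, by amounts that did not pass the test. Of 30 varying probe sets, 24 (80%) had a lower mean in 6C+4CP and 6 a higher one, where 52.1% of all varying probe sets were lower. The median difference was -0.072 over these 30 and -0.0040 over all varying probe sets. The widest was -0.46, for Psmd14, and the median fold in either direction was 1.06. The plot of cumulative differences shows the offset of the members together with the absence of wide differences among them.

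**Figure D1:**
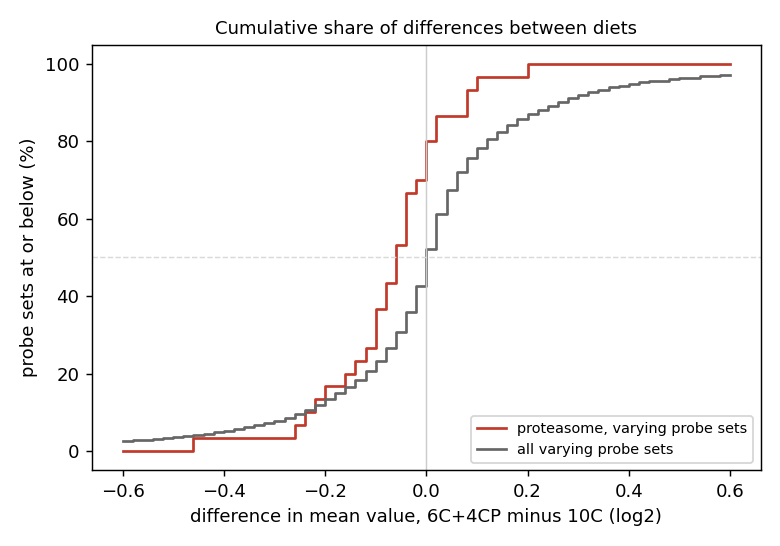
Cumulative share (percent, vertical axis) of varying probe sets whose difference in mean value, 6C+4CP minus 10C in log2 units, was at or below the value on the horizontal axis, for 30 proteasome probe sets and for all 7791 varying probe sets. The proteasome line reaches 80% at 0, where the other reaches 52.1%, and it spans -0.46 to 0.19, while the other runs beyond both ends of the axis.

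No member passed limma with Benjamini-Hochberg adjustment. Over all 45037 probe sets, 0 of 81 were called at an adjusted p under 0.05, where 0.242% of all probe sets were called, and 103 of those 109 calls were fixed probe sets. Over the varying probe sets alone, 0 of 30 members and 0% of all 7791 were called. At an unadjusted p under 0.05 in that fit there were 4 members out of 30, all lower. Counted in both directions, this is close to the 14.6% of all varying probe sets at that level (495 lower and 645 higher). The smallest adjusted p of a member was 0.162 by limma over varying probe sets, for Psma1, and 0.572 over all probe sets.

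Complete separation of the diets was seen in 8 of the 30. In 7 of them (23.3%) every 6C+4CP mouse lay below every 10C mouse, against 9.11% of all varying probe sets. In 1 (3.33%) every 6C+4CP mouse lay above, against 10.8%. These shares describe a list chosen with earlier results of these data known, so they carry no test. Among the 27 members in the brighter part of the array, 23 were lower and 7 separated downward (25.9%), against 52.3% and 9.74% of the 6582 brighter varying probe sets.

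**Figure D2:**
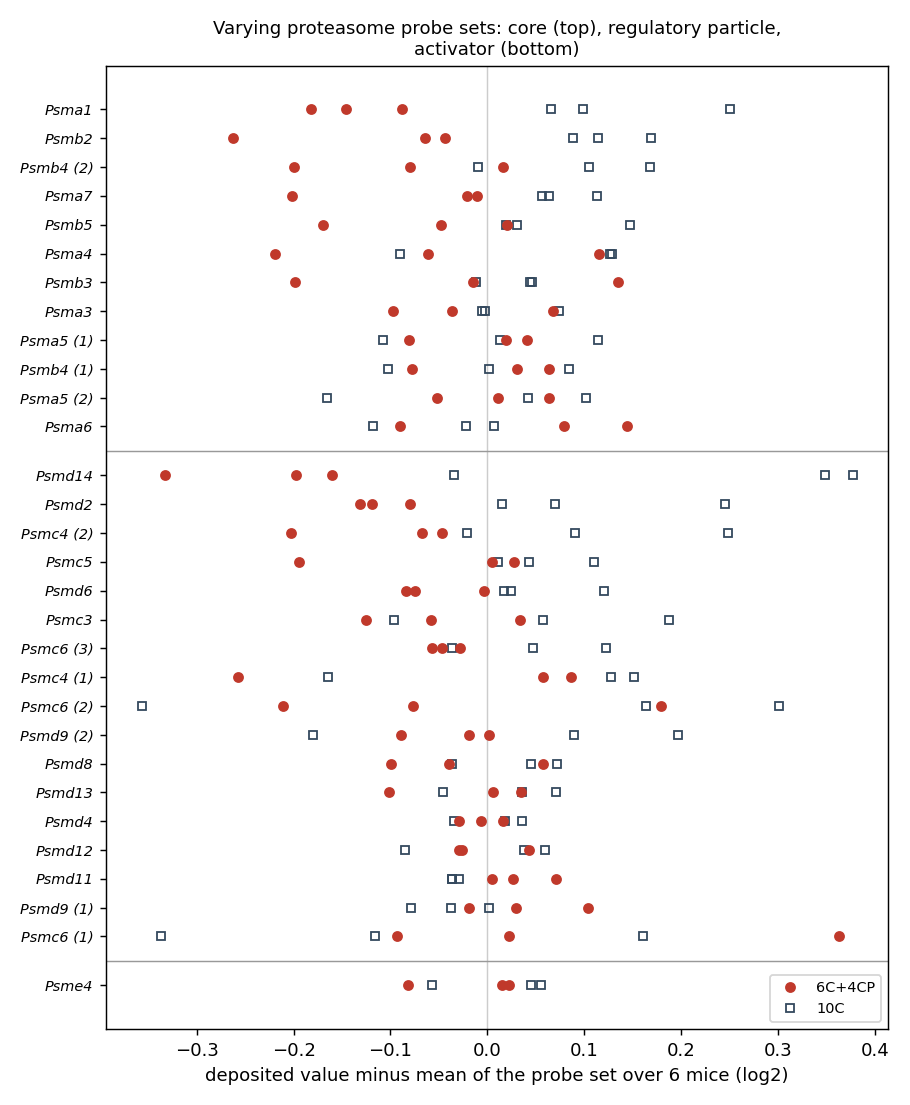
Values in each mouse for the 30 varying proteasome probe sets, as the deposited value minus the mean of that probe set over 6 mice (log2, horizontal axis). Core, regulatory particle and activator genes run from top to bottom, with numbers in brackets where a gene has several varying probe sets. For Psmb4 and Psmc4 these numbers run opposite to the order in the text. Filled circles are 6C+4CP mice and open squares 10C mice; circles lie left of all squares in 7 rows and right of all squares in 1, Psmd11.

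Promoters of the members were read from RefSeq sequences on GRCm38.p6, of which 30 of the 36 genes have an entry (32 promoters). The 250 bases before the start site were searched on both strands for 3 short motifs. TGACNNNGC, the core of the antioxidant response element bound by Nfe2l1 and Nfe2l2, was found in 5 promoters (15.6%), against 10.2% of all 32851. CCAAT, bound by NF-Y, was found in 11 (34.4%, against 33.8%), and CCGGAAG, bound by ETS factors, in 12 (37.5%, against 6.91%). No matches overlapped one another (0 cases). The 5 genes with TGACNNNGC were Psmb5, Psmb6, Psmc6, Psmd9 and Psmd12; Psmb6 was fixed and the others overlapped between the diets.

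The promoters below belong to 4 members. Among those with an entry, their varying probe sets had the smallest p in the fit over all probe sets. No member passed adjustment, and Psmd11 had an unadjusted p of 0.094 by limma over varying probe sets. Capitals mark motif matches on either strand. Psma1 (chr7:114276117-114276366, minus strand) has CCAAT in both orientations, and Psmd14 (chr2:61711444-61711693, plus strand) has it once in reverse, as ATTGG. Psmd2 (chr16:20651402-20651651, plus strand) and Psmd11 (chr11:80428365-80428614, plus strand) each hold CCGGAAG in reverse close to the start, as CTTCCGG, although their differences had opposite signs. A match is a string of letters and not a measured site.
Psma1: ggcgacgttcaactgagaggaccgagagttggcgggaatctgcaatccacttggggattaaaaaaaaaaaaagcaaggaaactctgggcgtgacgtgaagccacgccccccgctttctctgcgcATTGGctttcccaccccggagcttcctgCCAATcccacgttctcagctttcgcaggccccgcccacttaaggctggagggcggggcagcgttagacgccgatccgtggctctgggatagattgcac
Psmd14: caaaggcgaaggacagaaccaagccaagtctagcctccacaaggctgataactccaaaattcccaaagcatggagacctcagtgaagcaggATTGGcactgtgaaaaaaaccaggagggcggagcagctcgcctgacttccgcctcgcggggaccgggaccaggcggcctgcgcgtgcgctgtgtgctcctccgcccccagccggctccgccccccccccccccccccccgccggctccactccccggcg
Psmd2: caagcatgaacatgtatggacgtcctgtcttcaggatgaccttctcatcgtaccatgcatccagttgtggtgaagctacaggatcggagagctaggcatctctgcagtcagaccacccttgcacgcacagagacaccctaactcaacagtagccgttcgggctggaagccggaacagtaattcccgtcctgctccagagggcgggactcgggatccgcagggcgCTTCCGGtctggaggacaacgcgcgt
Psmd11: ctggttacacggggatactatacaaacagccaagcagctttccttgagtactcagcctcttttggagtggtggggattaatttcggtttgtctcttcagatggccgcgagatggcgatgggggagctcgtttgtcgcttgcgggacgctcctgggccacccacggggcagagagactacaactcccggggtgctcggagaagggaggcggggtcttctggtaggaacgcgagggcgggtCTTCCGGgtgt

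The core outer ring was represented by 17 probe sets of 7 genes, of which 7 varied. Psma1, a structural subunit of this ring, read 9.66, 9.57 and 9.60 in the 6C+4CP mice, against 9.85, 10.00 and 9.81 in the 10C mice. The diets did not overlap, and all 3 mice on 6C+4CP lay within a narrow span. The means were 9.61 ± 0.0473 and 9.89 ± 0.0983 (SD, n = 3 each), a difference of -0.28 (SE 0.0619, 95% interval -0.45 to -0.11), or 1.21 times lower. The other 3 probe sets of Psma1 were fixed.

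Psma7, another outer ring subunit, also separated the diets. It read 9.39, 9.21 and 9.40 in 6C+4CP, against 9.47, 9.53 and 9.48 in 10C, a difference of -0.16 (SE 0.0635, 95% interval -0.33 to 0.02). Its second probe set was fixed. The interval includes 0, and the lowest mouse, 6C+4CP replicate 2, accounts for much of the gap: without it the difference was -0.094.

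The other outer ring genes overlapped between the diets. Psma3 read 10.76, 10.70 and 10.86 in 6C+4CP and 10.87, 10.79 and 10.79 in 10C, a difference of -0.04 (95% interval -0.19 to 0.10). Psma4 read 10.36, 10.03 and 10.19 in 6C+4CP and 10.37, 10.38 and 10.16 in 10C, a difference of -0.11 (95% interval -0.44 to 0.21). In each of these genes at least 1 mouse on 6C+4CP lay among or above the 10C mice.

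Psma5 had 2 varying probe sets with differences of -0.01 and 0.01. The first of them read 10.37, 10.25 and 10.35 in 6C+4CP, and 10.34, 10.45 and 10.22 in 10C, with a 95% interval of -0.21 to 0.19. Psma6 varied in 1 of 4 probe sets, which read 5.80, 5.56 and 5.73 in 6C+4CP and 5.63, 5.66 and 5.53 in 10C, a difference of 0.09 (95% interval -0.13 to 0.30). Psma2 had 1 probe set, which was fixed.

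The inner ring had 5 varying probe sets out of 11, with 4 lower, 1 higher and a median difference of -0.13. Psmb2, a ring subunit without a proteolytic site, read 8.89, 8.69 and 8.91 in 6C+4CP, against 9.04, 9.12 and 9.07 in 10C. The 10C mice lay close together and above all mice on 6C+4CP. The means were 8.83 ± 0.121 and 9.08 ± 0.041 (SD, n = 3 each), a difference of -0.25 (SE 0.0725, 95% interval -0.45 to -0.05), or 1.19 times lower.

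Among the proteolytic subunits in the member list only Psmb5, which carries the chymotrypsin-like site, could be compared. It read 9.95, 9.83 and 10.02 in 6C+4CP and 10.03, 10.15 and 10.02 in 10C, a difference of -0.13 (SE 0.0678, 95% interval -0.32 to 0.05), with overlap. Psmb6 and Psmb7, which carry the caspase-like and trypsin-like sites, had 1 fixed probe set each.

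Psmb4, a subunit that takes part in ring assembly, gave opposite signs from 2 probe sets. The first read 10.12, 10.00 and 10.22 in 6C+4CP and 10.19, 10.37 and 10.31 in 10C, a difference of -0.18 (95% interval -0.39 to 0.04), and the second differed by 0.01. Psmb3 read 9.52, 9.33 and 9.67 in 6C+4CP and 9.58, 9.57 and 9.52 in 10C, a difference of -0.05 (95% interval -0.32 to 0.21). Both overlapped, and the 3 probe sets of Psmb1 were fixed.

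The ATPase ring of the regulatory particle had 7 varying probe sets out of 12, from 4 of 6 genes. Psmc4 varied in both of its probe sets. The first of them read 8.29, 8.13 and 8.27 in 6C+4CP, against 8.42, 8.58 and 8.31 in 10C, a difference of -0.21 (SE 0.0904, 95% interval -0.46 to 0.04). The diets separated there by a small gap, but not in the second. The second read 8.93, 8.90 and 8.58 in 6C+4CP and 8.99, 8.97 and 8.68 in 10C, a difference of -0.08. Without 10C replicate 2 the difference in the first was -0.14.

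Psmc6 varied in all 3 of its probe sets. They differed by 0.19, -0.07 and -0.09, and all overlapped between the diets. The tightest of them read 9.75, 9.74 and 9.72 in 6C+4CP and 9.90, 9.83 and 9.75 in 10C, with a 95% interval of -0.21 to 0.04. Values in the widest one ranged over 0.70 across the mice.

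Psmc3 read 9.65, 9.49 and 9.56 in 6C+4CP and 9.67, 9.80 and 9.52 in 10C, a difference of -0.10 (95% interval -0.35 to 0.15). Psmc5 read 9.20, 9.18 and 8.98 in 6C+4CP and 9.19, 9.29 and 9.22 in 10C, a difference of -0.11 (95% interval -0.31 to 0.10). Both ATPases overlapped between the diets. The remaining ATPases, Psmc1 and Psmc2, had 5 probe sets, all fixed.

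Of the 31 probe sets of non-ATPase subunits 10 varied, and these included the member with the widest difference. Psmd14 encodes the deubiquitinase that cuts ubiquitin chains from the substrate as it enters the core. It read 9.06, 9.10 and 8.93 in 6C+4CP, against 9.64, 9.61 and 9.22 in 10C. All 6C+4CP mice were lower, and the third 10C mouse lay nearer to them than to its own diet. The means were 9.03 ± 0.0906 and 9.49 ± 0.23 (SD, n = 3 each), a difference of -0.46 (SE 0.14, 95% interval -0.84 to -0.08), or 1.38 times lower.

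With limma the adjusted p of Psmd14 was 0.21 over varying and 0.691 over all probe sets. Without 10C replicate 3 its difference was -0.59 (adjusted p = 0.06 by limma over varying probe sets), and over the other mice left out in turn it lay between -0.50 and -0.39. When arrays were centred on the median of their varying probe sets, Psmd14 was called in the fit over all probe sets (adjusted p = 1.44e-05 by limma), as 1 of 1324 calls against 109 without centring. The offset taken from each array also gave the fixed probe sets a shared small spread. That spread enters the moderated variance of every probe set, so this p is not comparable with 0.691. Over varying probe sets Psmd14 was not called with the same centring (adjusted p = 0.117).

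Psmd2, a large scaffold subunit that also docks ubiquitin carriers, read 9.28, 9.34 and 9.30 in 6C+4CP, against 9.43, 9.66 and 9.49 in 10C. The 6C+4CP mice lay within a narrow band below all 10C mice. The means were 9.30 ± 0.027 and 9.53 ± 0.12 (SD, n = 3 each), a difference of -0.22 (SE 0.0699, 95% interval -0.41 to -0.03), or 1.17 times lower. Its other probe set was fixed, and without 10C replicate 2 the difference was -0.15.

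Psmd6, a subunit of the lid of the regulatory particle, read 9.69, 9.68 and 9.76 in 6C+4CP, against 9.79, 9.88 and 9.78 in 10C, a difference of -0.11 (SE 0.0411). The gap between the diets was small beside the spread among the mice. Its second probe set was fixed. Psmd11, a lid subunit that touches the core, was the 1 member separated upward, in the only 1 of its 8 probe sets that varied (the others were fixed). This probe set read 8.89, 8.85 and 8.83 in 6C+4CP, against 8.79 in each of the 10C mice, a difference of 0.07 (SE 0.0191, 95% interval 0.02 to 0.12). That interval comes from the fit over all probe sets, and over varying probe sets its unadjusted p was 0.094 by limma. The 10C values were nearly equal (SD 0.00428), and under quantile normalization or median centring the diets overlapped.

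**Figure D3:**
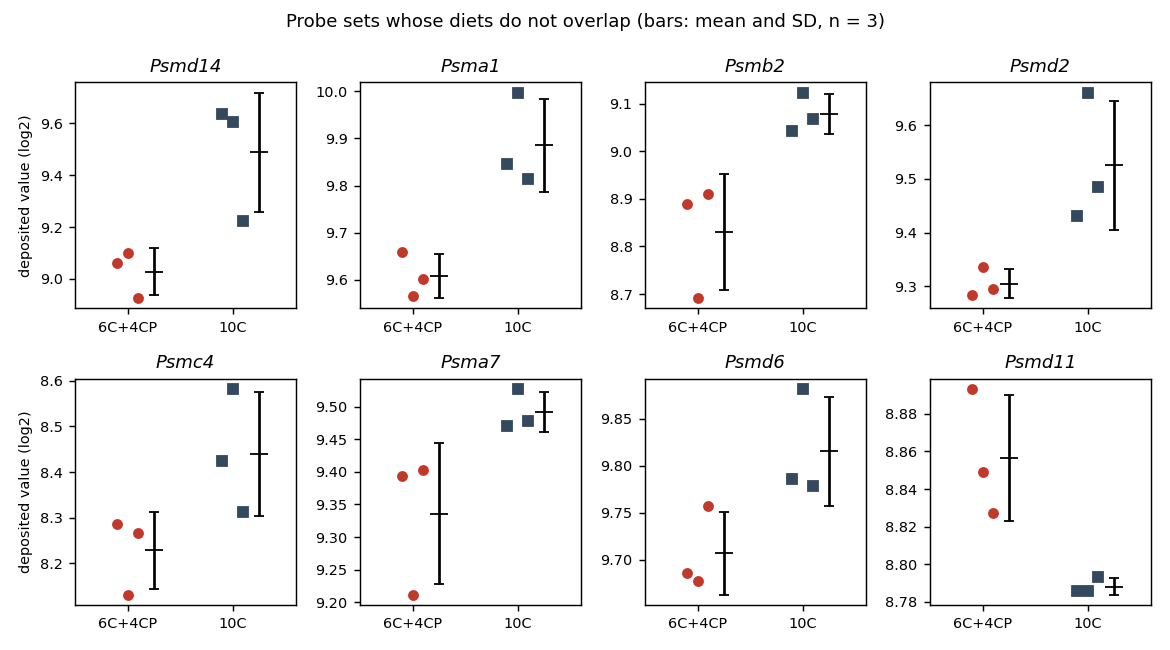
Deposited values (log2, vertical axes, which do not start at 0 and differ between panels) of the 8 proteasome probe sets in which the diets do not overlap, with 1 point per mouse, 6C+4CP left of 10C, and bars for mean and SD (n = 3). Psmd14 has the widest gap between means (-0.46) and Psmd11, the last panel, is the only one with higher values in 6C+4CP, and the Psmc4 panel shows the first of its probe sets given in the text.

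The remaining non-ATPase subunits overlapped. Psmd8, of the lid, read 10.10, 10.04 and 10.20 in 6C+4CP and 10.11, 10.19 and 10.21 in 10C, a difference of -0.05 (95% interval -0.21 to 0.10). Psmd9, a chaperone of ATPase ring assembly, varied in 2 of 3 probe sets with opposite signs. The first read 6.48, 6.60 and 6.52 in 6C+4CP and 6.46, 6.42 and 6.50 in 10C, a difference of 0.08, and the second differed by -0.07.

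The ubiquitin receptor Psmd4 differed by -0.01, with a 95% interval of -0.08 to 0.05, the narrowest range over the mice of any varying member (0.071). The lid subunits Psmd12 and Psmd13 differed by -0.01 (95% interval -0.15 to 0.13) and -0.04 (95% interval -0.19 to 0.10). Psmd1, Psmd3, Psmd5 and Psmd7 had fixed probe sets only. Psmd7 is the partner of Psmd14 in the deubiquitinating pair, so that pair could be read through only 1 of its subunits.

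Activators gave little to compare, with 1 of 10 probe sets varying. Psme4, a nuclear cap, read 8.74, 8.85 and 8.84 in 6C+4CP and 8.77, 8.88 and 8.87 in 10C, a difference of -0.03 (95% interval -0.16 to 0.10), with overlap. Psme1, a subunit of the interferon-inducible cap, and Psme3, its nuclear relative, had fixed probe sets only. In all, 24 of the 36 genes had a varying probe set. Of the 5 genes with several, 1 (Psmc4) had a single direction and 4 (Psma5, Psmb4, Psmc6 and Psmd9) had both. Between the 2 kinds lay a wide gap: the widest range of a fixed member was 1.26e-06 and the narrowest of a varying one 0.071.

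Most varying probe sets of both the core and the regulatory particle had a lower mean in 6C+4CP. In the core 9 of 12 varying probe sets (75%) were lower, with a median of -0.081, and 3 (25%) separated downward. In the regulatory particle 14 of 17 (82.4%) were lower, with a median of -0.072, and 4 (23.5%) separated downward. Upward separation was seen in 0 core probe sets and in 1 of the regulatory particle (5.88%). Of all varying probe sets 52.1% were lower, 9.11% separated downward and 10.8% upward. The medians differed by -0.0089 (core minus regulatory particle), and this difference was not tested. It was -0.047 among brighter probe sets and -0.045 with 1 probe set a gene, where the core's median was -0.121 in both. Both medians moved with single mice: the core's was -0.017 without 6C+4CP replicate 2, and that of the regulatory particle was -0.033 without 10C replicate 2 and -0.127 without 10C replicate 3.

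Single mice stood out among the members. The highest value was in a 6C+4CP mouse in 5 and in a 10C mouse in 25 of the 30 varying probe sets. The lowest was in a 6C+4CP mouse in 19 and in a 10C mouse in 11. Of all varying probe sets, 13.1%, 26.2% and 16% had their highest value in 10C replicates 1, 2 and 3. The lowest value was in 6C+4CP replicates 1, 2 and 3 in 13.5%, 15.4% and 16.9% of all varying probe sets. One mouse, 10C replicate 2, held the highest value in 15 (50%), against 26.2% of all varying probe sets. The mouse 6C+4CP replicate 2 held the lowest in 12 (40%), against 15.4%. Without 10C replicate 2, 22 of 30 were lower and 7 separated downward, and without 6C+4CP replicate 2, 20 were lower and 7 separated. In both settings the share of all varying probe sets separated downward was higher than the 9.11% with all mice. The count of members stayed at 7, so the members stood less far above that share. The share of all varying probe sets with a lower mean was 52.1% with all mice and is not given for these settings. Downward separation was counted in 12 without 10C replicate 1, in 13 without 10C replicate 3 and in 12 without 6C+4CP replicate 3. In these 3 settings the share of all varying probe sets separated downward also lay higher, between 13.3% and 21% (21% without 10C replicate 3), against 9.11% with all mice.

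Saa1, an acute phase gene, in 1 of its 2 probe sets read 7.87, 7.54 and 9.13 in 6C+4CP, against 7.68, 14.03 and 8.84 in 10C, so that 10C replicate 2 stood far above the rest. Hspa5, the main chaperone of the endoplasmic reticulum, in 1 of its 3 probe sets read 11.83, 11.84 and 11.77 in 6C+4CP, against 12.77, 13.25 and 12.87 in 10C, with that mouse highest again. In another Hspa5 probe set it was the lowest of the 10C mice: the values were 8.31, 8.53 and 8.34 in 6C+4CP, against 8.69, 8.60 and 8.74 in 10C, a difference of -0.28. Their part in the proteasome values was not tested.

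**Figure D4:**
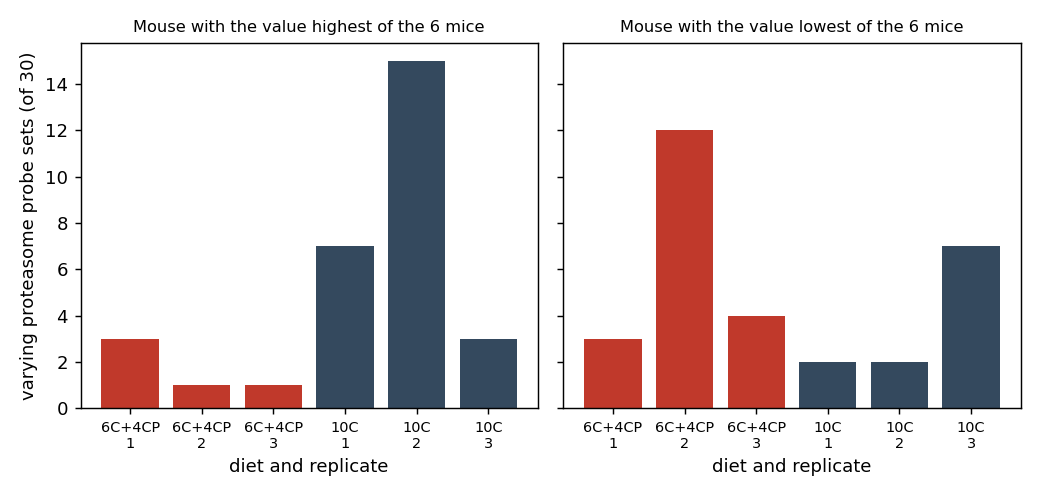
Number of the 30 varying proteasome probe sets (vertical axis) in which each mouse, by diet and replicate (horizontal axis), had the highest value (left) or the lowest value (right) of the 6 mice; red bars are 6C+4CP and dark bars 10C. The tallest bars are 10C replicate 2 with 15 highest values and 6C+4CP replicate 2 with 12 lowest values.

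Other genes of the ubiquitin-proteasome pathway were taken from a list of 47, of which 38 had a probe set. Of their 35 varying probe sets 25 were lower and 10 higher in 6C+4CP, with a median of -0.085. That is 71.4% lower, against 52.1% of all varying probe sets. Downward separation occurred in 5 (14.3%, against 9.11%) and upward separation in 0 (against 10.8%). Over varying probe sets limma called 0 at an adjusted p under 0.05. At an unadjusted p under 0.05 there were 5 of 35, all lower. Among all varying probe sets the share at that level was 14.6%, counted in both directions (495 lower and 645 higher).

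The inducible core subunits replace their constitutive relatives in the immunoproteasome. Psmb8 read 7.92, 7.92 and 8.10 in 6C+4CP, against 8.06, 8.37 and 8.76 in 10C, a difference of -0.41 (adjusted p = 0.393 by limma over varying probe sets). Psmb9 read 7.48, 7.32 and 7.85 in 6C+4CP, against 7.69, 8.25 and 7.86 in 10C, a difference of -0.38 (adjusted p = 0.459 by limma). Psmb8 overlapped through 1 mouse of each diet, and Psmb9 did likewise. The third inducible subunit, Psmb10, was fixed.

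Immune cells also express these subunits. Kupffer cell and macrophage markers (8 of 8 with a probe set, 6 varying probe sets) had a median difference of -0.17 with 0 separated. Their mean levels ran from 8.03 to 8.56 in 6C+4CP and from 8.20 to 8.73 in 10C. Of 15 probe sets of B cell markers only 1 varied, for Ighm, and the others were fixed. It differed by -0.66 without overlap, where 9.11% of all varying probe sets separated downward. Stellate cell markers had a median of -0.0068, the endothelial marker Stab1 differed by -0.07 and the erythroid marker Alas2 by 0.13. T or NK cell, neutrophil and cholangiocyte markers had 0 varying probe sets. Hepatocyte markers themselves had a median of -0.071 (9 of 14 lower, 5 separated downward and 1 upward), close to that of the proteasome probe sets. The part of these cell types in the proteasome values was not tested.

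Assembly chaperones of the core had 4 varying probe sets from 3 of 5 genes, and Psmg3 and Psmg4 had fixed probe sets only. All 4 were lower in mean (median -0.11), where 52.1% of all varying probe sets were lower. Pomp, the maturation factor of the core, read 10.36, 10.28 and 10.34 in 6C+4CP, against 10.42, 10.46 and 10.36 in 10C, a difference of -0.09 with a barely visible gap. Nfe2l1, the transcription factor that drives proteasome genes when the proteasome is impaired, read 7.93, 8.30 and 8.31 in 6C+4CP and 7.95, 7.72 and 8.02 in 10C, a difference of 0.28 with overlap (adjusted p = 0.427 by limma over varying probe sets).

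Wider differences lay in genes that deliver proteins from the endoplasmic reticulum to the proteasome. There 10 of 11 varying probe sets were lower (90.9%, against 52.1% of all varying probe sets), with a median of -0.28. Downward separation was seen in 4 (36.4%, against 9.11%), all of them probe sets of Syvn1 or Sel1l. The ubiquitin ligase Syvn1, in 1 of its 2 varying probe sets, read 8.28, 8.03 and 8.40 in 6C+4CP, against 9.43, 10.64 and 10.08 in 10C, a difference of -1.82 (adjusted p = 0.117 by limma over varying probe sets). The other Syvn1 probe set differed by -1.31, also without overlap. Sel1l, the partner of Syvn1, in 1 of its 3 varying probe sets differed by -0.81 without overlap (adjusted p = 0.152 by limma). Its other varying probe sets differed less, by -0.28 without overlap and by -0.21 with overlap. Vcp, the ATPase that pulls substrates out of the membrane, differed by 0.12 with overlap in 1 probe set, with means of 6.63 in 6C+4CP and 6.51 in 10C, and its other probe set was fixed. Of the ubiquitin group only Ube2d3, a conjugating enzyme, varied, with 6 probe sets between -0.03 and 0.06.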

How the data were processed

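Total RNA of 6 livers was measured on Affymetrix 3' expression arrays, 1 array per mouse. Per the labels' protocols, tissue was kept in RNAlater and labelled RNA was amplified from 100 ng. The deposited values were already processed by the authors and were read as log2. R 2.7.2 is named per the submitters' processing notes. Background correction, probe summary and log base were all not given in the sources used here. Folds therefore assume base 2.

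Of 45101 rows, 64 array controls were left out. GEO's platform annotation named the genes, and the Entrez identifiers of all 81 member probe sets led to the same symbol in the RefSeq gene table. A linear model without covariates was fitted in R 4.3.3 by limma 3.58.1, with eBayes moderation, over all probe sets and over varying ones, with Benjamini-Hochberg adjustment and a threshold of 0.05. SE and 95% intervals come from the first fit, whose prior had 0.145 degrees of freedom (1.31 in the second). Precision is limited by having 3 arrays a diet. The scripts were tested on simulated data. Other settings tried were quantile normalization, a replicate block, median centring, trend with robust estimation, brighter probe sets, a range over 0.1, 1 probe set a gene, an adjusted p under 0.1 and each mouse left out. Median differences, counts and separation of the diets are descriptions.

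Members with a varying probe set are given mouse by mouse for up to 10 core, 10 regulatory and 4 activator genes by smallest p, with every separated member. The members and lists were chosen with earlier results of these data known. Another diet group of the study was not analysed here. Replicate numbers were not taken to pair the mice. The deviations of same-numbered mice correlated at 0.477, -0.0893 and 0.0847 over varying probe sets. Differently numbered mice were not compared, so these correlations cannot decide whether the numbers pair the mice.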

Additional observations from a re-analysis of the deposited data

How the results depend on the processing

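With 14 alternative settings, 0 of 410 values of single members passed an adjusted p of 0.05 in limma over varying probe sets, and the lowest was 0.06. Of these values 20 changed sign. Over all probe sets 0 members were called, except 1 (Psmd14) with median centring. Over varying probe sets 0 were called under every alternative run, including the replicate block (0 called over all and 0 over varying probe sets), an adjusted p under 0.1, and trend with robust estimation. The block is given here only as a check. Over the whole array, calls among all probe sets numbered 109, against 3 with the replicate block, 1 with quantile normalization, 0 with trend and robust estimation, 0 among brighter probe sets, 46 with 1 probe set a gene, 1324 with median centring and 285 to 398 with 1 mouse left out.

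Downward separation ranged from 7 to 13 probe sets and upward separation from 1 to 2 as each mouse was left out, and fewer mice separate more easily: 12.5% to 21% of all varying probe sets then separated downward. Upward separation was 0 with quantile normalization (9 downward) and 0 with median centring (10 downward). The median of the regulatory particle ranged from -0.127 to -0.033 without 1 mouse, and the core's from -0.12 to -0.017. Core minus regulatory particle changed sign in 3 settings: quantile normalization gave 0.0056, leaving out 10C replicate 3 gave 0.014, and leaving out the second 6C+4CP mouse gave 0.036. The cause was not tested. Signal over background is not given with these values, so depth cannot be judged.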
